A study of Mus musculus with 6 samples.

Results

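Mitochondrially encoded RNAs were measured by RNA-seq in immortalized bone marrow-derived macrophages (BMMs) from WT and Aif1-/- mice. They were taken as all genes of the mitochondrial chromosome, whose symbols start with mt-, and comprised 37 of the 47729 genes counted: 13 mRNAs, 2 rRNAs and 22 tRNAs. Aif1 encodes allograft inflammatory factor-1, a cytoplasmic protein of macrophages. The BMMs were grown from the femur and tibia of male C57BL/6J mice aged 8 weeks, immortalized with SV40 large T antigen, kept in 120 ng/ml CSF-1, the macrophage growth factor, and used at passages 3 to 5. Both genotypes therefore carried the viral antigen, and cells of either genotype were a cultured line rather than resident macrophages. There were 3 libraries of each genotype. The study gives n as biologically independent animals, but no source states whether each library came from its own immortalized line, so p-values measure the spread between these libraries. In bulk RNA, fewer cells of a kind and less RNA per cell cannot be told apart.

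The mammalian mitochondrial genome is a small circle transcribed from both strands into long precursors. Most of its tRNAs lie between the mRNAs and rRNAs and are cut out of the precursors, which frees the other RNAs. Its mRNAs encode core subunits of respiratory complexes I, III, IV and V, its rRNAs form the mitochondrial ribosome, and every protein needed to transcribe, process and translate these RNAs is made from nuclear genes and imported.

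Counts on genes were 17707986 to 29314253 per library, of which 227265 to 431450 lay on mitochondrial genes. Total RNA had been depleted of rRNA before the libraries were made. Reads outside genes made up 25.5% of counted reads in WT replicate 3 and 40.4% in WT replicate 2, with 32.4% in WT replicate 1 and 33.6% to 35.7% in the Aif1-/- libraries. Aif1 had 220, 157 and 239 counts in the WT libraries and 4, 4 and 1 in the Aif1-/- libraries, a log2 fold change of −5.71 (SE 0.38, edgeR adjusted p = 2.84e-06). Summed macrophage markers (7 genes) were 3512 to 3851 CPM (counts scaled by the library total) in WT and 4988 to 5037 CPM in Aif1-/- BMMs. Of the other marker lists, the 4 megakaryocyte and platelet genes summed to 36.7 to 40.01 CPM in WT and 74.8 to 77.4 CPM in Aif1-/- BMMs with no gene at 0, while T cell, neutrophil and fibroblast lists each summed to 1.07 CPM or less, with Cd3e, Cd3g, Mpo, Elane, S100a9 and Ly6g at 0 in every library. The part of the marker differences in the results below was not tested.

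Some of the mitochondrial sequence also exists in the nuclear genome, and the 2 kinds of copy could exchange reads, because the authors kept a read at 1 location only. In the GRCm38 annotation, 11 nuclear pseudogenes matched a mitochondrial gene over at least 100 bases at 95% identity or more. Together they held 691066 counts. A block of 7 on the minus strand of chromosome 1 (chr1:24611535-24616197) held 87.3% of these, with identities of 99.71% to 100%. The matches of that block held 2 single-base differences, each printed here in the mitochondrial gene and its copy because they are the sole letters by which a read inside the match could be told apart. The differing base is in capitals, positions count from 1 at the first base of the mitochondrial gene, and the match of Gm29216 to mt-Co1 begins at position 1063.
mt-Co1, chrM:6373-6413, around A1066T: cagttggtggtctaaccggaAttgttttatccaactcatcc
Gm29216, chr1:24616165-24616197, minus strand: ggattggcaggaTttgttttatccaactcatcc
mt-Nd3, chrM:9459-9481, T3C: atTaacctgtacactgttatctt
Gm28438, chr1:24613097-24613119, minus strand: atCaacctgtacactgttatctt

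Gm28437, a complete copy of mt-Co3 (783 matched bases, 100% identity), took 49.8% to 50.2% of the pair's counts across the 6 libraries. For Gm28661 and mt-Co2 the copy's share was 48.8% to 49.5%, for Gm28438 and mt-Nd3 49.7% to 51.3%, for Gm10222 and mt-Nd4l 48.7% to 51.6%, and for Gm10925 and mt-Atp6 52.3% to 53.8%. These 5 copies, none more than 3 bases shorter than its gene, thus took between 48.7% and 53.8% in every library. The partial copies of the same block took less: Gm29216, which matches 483 bases of mt-Co1, 19.2% to 20.7%, and Gm28439, which matches 876 bases of mt-Nd4, 27.8% to 30.2%.

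Copies that differ from the mitochondrial gene at more bases took smaller shares. On chromosome 2, Gm13340 matches all 1545 bases of mt-Co1 at 97.6% identity and took 9.45% to 11.4% of the pair's counts. Gm13341, at 95.9% identity to mt-Co2, took 10.6% to 14.3%. Gm13339, a partial copy of mt-Nd2, and Gm4076 on chromosome 13, a partial copy of mt-Nd5, took at most 1.21% and 0.225%. No copy matching mt-Nd1, mt-Nd6, mt-Cytb, mt-Atp8 or either rRNA was found by this rule, which searched annotated transcripts only. In the chromosome 1 block, gene order would place mt-Atp8 between Gm10925 (mt-Atp6, ending at 24614651) and Gm28661 (mt-Co2, starting at 24614885). Whether an unannotated copy of mt-Atp8 lies there was not tested. Between genotypes, 0 of the 11 copies passed the edgeR test, beside 18.6% of all tested genes (1 at an unadjusted p under 0.05), and DESeq2 called 0 (2 at an unadjusted p under 0.05). Without WT replicate 2, edgeR called 3 of them as higher, where 10.1% of all tested genes passed as higher, and without WT replicate 3 it called 2 as lower, where 14.0% passed as lower. Levels and shares are therefore given both as deposited and with the copies' counts added to the mitochondrial gene. Adding them treats every read on a copy as mitochondrial, which was not tested. This includes Gm13340 and Gm13341, which differ at more bases.

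**Figure D1:**
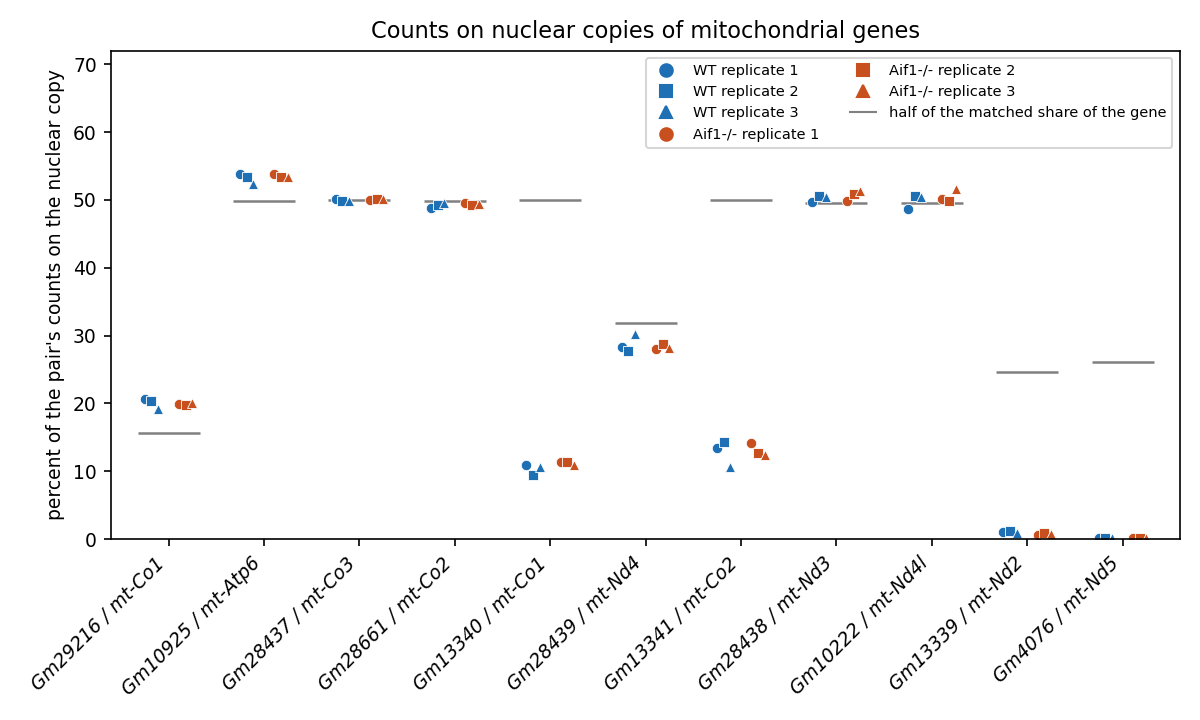
Percent of the counts of each pair (nuclear copy and mitochondrial gene) that lay on the nuclear copy, 1 point per library. Grey dashes mark the percent of the mitochondrial gene that the copy matches, divided by 2. The 5 copies of whole genes on chromosome 1 lie between 48.7% and 53.8% in all 6 libraries, and the chromosome 2 and 13 copies lie at 14.3% or below.

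Mitochondrial genes held 1.30%, 1.62% and 1.01% of gene counts across WT replicates 1 to 3, whereas the Aif1-/- libraries had 1.34%, 1.28% and 1.28%. The Aif1-/- libraries lay together inside the range of the WT libraries. The means were 1.31% ± 0.306 in WT and 1.30% ± 0.0366 in Aif1-/- BMMs (SD, n = 3; two-sided exact permutation p = 0.9, where 0.1 is the smallest that 3 against 3 libraries can give). With the copies added, the means were 1.80% ± 0.415 and 1.79% ± 0.0526 (exact permutation p = 1). Nearly all of it was mRNA: mRNAs made up 1.296% ± 0.309 of gene counts in WT and 1.297% ± 0.0360 in Aif1-/- BMMs.

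None of the 13 mRNAs passed the threshold between genotypes (0 of 13, with edgeR's quasi-likelihood test and Benjamini-Hochberg adjusted p under 0.05). Of all 17406 genes tested, 18.6% passed, 8.04% as higher and 10.5% as lower. At an unadjusted p under 0.05 there were 2, mt-Nd3 and mt-Cytb, and DESeq2 likewise called 0 with 2 at an unadjusted p under 0.05. The median log2 fold change was 0.09 over the 13 mRNAs and −0.00355 over all genes tested. Values below are normalized counts, that is, counts scaled by library size with TMM factors, and fold changes are Aif1-/- over WT.

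Among the 7 mRNAs of complex I, the NADH dehydrogenase that feeds electrons into the chain, mt-Nd3 was the single mRNA of the 13 whose genotypes did not overlap. It had normalized counts of 1697, 1986 and 1469 among WT replicates 1 to 3 and of 2064, 2120 and 2001 among the Aif1-/- libraries. All Aif1-/- values were above all WT values, a position that 16.5% of all tested genes shared (35.7% did not overlap in either direction), and the log2 fold change was 0.26 (SE 0.10, edgeR adjusted p = 0.111). mt-Nd1 had normalized counts of 23947, 28508 and 18284 among WT and of 28415, 26715 and 27101 among Aif1-/- libraries (log2 fold change 0.22, edgeR adjusted p = 0.328). Here WT replicate 2 was the highest and WT replicate 3 the lowest of the 6. The other complex I mRNAs had smaller log2 fold changes, of 0.14 for mt-Nd4l, −0.01 for mt-Nd4, −0.05 for mt-Nd5, −0.06 for mt-Nd2 and −0.12 for mt-Nd6, with edgeR adjusted p of 0.618 to 0.979.

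mt-Cytb, cytochrome b and the sole mitochondrially encoded subunit of complex III, had normalized counts of 28136, 34342 and 20015 among WT and of 36569, 34005 and 34270 among Aif1-/- libraries. WT replicate 2 lay among the Aif1-/- values and the other WT libraries below them. The log2 fold change was 0.35 (SE 0.16, edgeR adjusted p = 0.171).

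The mRNAs of complex IV, cytochrome c oxidase, include the most abundant RNA of the set. mt-Co1, its catalytic subunit, had normalized counts of 102570, 114980 and 90539 among WT and of 94289, 90844 and 87896 among Aif1-/- libraries. Of the mRNAs it had the lowest log2 fold change, −0.17 (SE 0.09, edgeR adjusted p = 0.232), and its genotypes overlapped through WT replicate 3. mt-Co2 and mt-Co3 had log2 fold changes of 0.09 and 0.13 (edgeR adjusted p = 0.684 and 0.510).

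Of the complex V mRNAs, which encode subunits of the ATP synthase's membrane part, mt-Atp8 had normalized counts of 542, 559 and 229 among WT and of 674, 547 and 656 among Aif1-/- libraries. Its log2 fold change was the highest of the 13, at 0.50, with the largest SE, 0.27 (edgeR adjusted p = 0.264), and WT replicate 3 lay far below the other libraries. mt-Atp6 had a log2 fold change of 0.03 (edgeR adjusted p = 0.925).

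**Figure D2:**
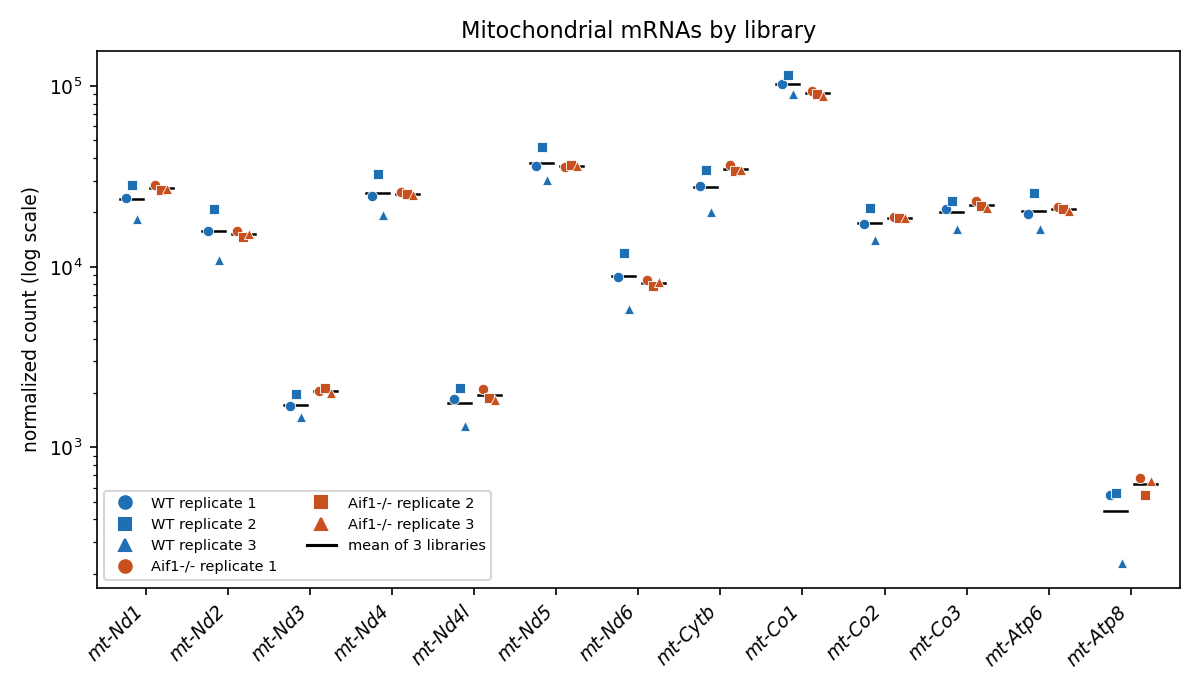
Normalized counts of the 13 mitochondrial mRNAs on a log axis, 1 point per library (WT blue, Aif1-/- orange) with the mean of 3 libraries as a bar. For each mRNA the WT points are more widely spread than the Aif1-/- points, with WT replicate 2 the highest and WT replicate 3 the lowest of the WT libraries.

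The mRNAs moved together among the WT libraries. All 13 had their highest WT value in replicate 2 and their lowest in replicate 3, whereas of all 17406 tested genes 5818 were highest in WT replicate 2 and 6615 lowest in WT replicate 3. The SD between libraries on the log2 scale had a median of 0.325 in WT and 0.0493 in Aif1-/- BMMs over the 13 mRNAs, and was larger in WT for 13 of 13. Over all tested genes the medians were 0.198 and 0.0911, and the WT value was the larger for 78.95%. Over the 7388 tested genes at least as abundant as the lowest of the mRNAs, the medians were 0.129 and 0.0470 and the WT value was the larger for 87.3%, with 22.0% highest in WT replicate 2 and 30.2% lowest in WT replicate 3. The highest-to-lowest ratio of mt-Co2 was 1.499 among WT and 1.01 among Aif1-/- libraries, and that of mt-Atp8, the widest in WT, was 2.44 and 1.23. WT replicates 2 and 3 were also those with the most and the fewest reads outside genes (40.4% and 25.5%), and the part of this in the mRNA values was not tested.

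The absence of calls changed when either of these 2 WT libraries, or the filter on low counts, was left out. Without WT replicate 2, mt-Nd1 (log2 fold change 0.38, edgeR adjusted p = 0.0216), mt-Nd3 (0.39, edgeR adjusted p = 0.00580) and mt-Cytb (0.54, edgeR adjusted p = 0.00917) passed as higher in Aif1-/- BMMs, where 10.1% of all tested genes passed as higher and 22.5% in either direction. Without WT replicate 3, mt-Nd2 (−0.27, edgeR adjusted p = 0.0448), mt-Co1 (−0.25, edgeR adjusted p = 0.00964) and mt-Nd6 (−0.34, edgeR adjusted p = 0.0192) passed as lower, where 14.0% of all tested genes passed as lower and 27.6% in either direction. Leaving out 1 library of the pair or the other thus called different mRNAs in opposite directions. With no filter on low counts, mt-Atp8, mt-Nd3 and mt-Cytb passed as higher (edgeR adjusted p = 0.0457, 0.0436 and 0.0143), where 5.97% of all genes in that fit passed as higher.

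Because the mRNAs shared their movement between WT libraries, each was also expressed as a percent of the 13 mRNAs in its own library. On this scale mt-Co1 was lower in Aif1-/- BMMs. As deposited it made up 33.96%, 31.65% and 36.98% of the mRNA counts across WT replicates 1 to 3 and 30.1%, 30.1% and 29.5% across the Aif1-/- libraries. Each Aif1-/- value lay below each WT value (34.2% ± 2.67 against 29.9% ± 0.380, SD, n = 3, exact permutation p = 0.1, the smallest possible). With copies added, the means were 33.9% ± 2.47 and 29.8% ± 0.342, again without overlap.

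mt-Cytb showed the opposite order. With copies added it held 6.73%, 6.90% and 5.92% in WT and 8.45%, 8.17% and 8.35% in Aif1-/- BMMs (exact permutation p = 0.1). Its mean went from 6.52% ± 0.523 to 8.32% ± 0.144 (SD, n = 3). In mt-Co1 counts per mt-Cytb count, the WT libraries had 5.05, 4.56 and 6.14 and the Aif1-/- libraries 3.55, 3.67 and 3.52, which follows from these shares and is no further evidence.

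As deposited, 6 of the 13 mRNAs had higher shares in Aif1-/- BMMs without overlap, 1 had a lower share and 6 overlapped. Scaled in the same way, 22.0% of all 17406 tested genes did not overlap, 9.61% on the higher and 12.4% on the lower side. The 13 mRNAs are themselves this scale, which takes out their shared movement and passes it to every other gene. These percentages are therefore not a like-for-like background for the 13. In normalized counts, 1 of the 13 mRNAs and 35.7% of all tested genes did not overlap. The 6 with higher shares were mt-Nd1, mt-Co2, mt-Atp8, mt-Co3, mt-Nd3 and mt-Cytb, and the lower one was mt-Co1. With copies added, mt-Nd4l joined those higher, at 0.840% ± 0.0446 in WT and 0.934% ± 0.0424 in Aif1-/- BMMs. The shares add up to 100% in each library and so are not independent of each other: where mt-Co1 holds less, the others hold more. Scaling the model to the summed mRNA counts, edgeR called 0 of the 13 (1 at an unadjusted p under 0.05). That fit called 571 of all 17406 tested genes as higher and 956 as lower, fewer than the main fit.

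With copies added, the share of mt-Nd1 went from 5.62% ± 0.184 to 6.53% ± 0.0975, mt-Co2 from 8.83% ± 0.178 to 9.45% ± 0.157, mt-Co3 from 9.62% ± 0.364 to 10.5% ± 0.175, mt-Nd3 from 0.830% ± 0.0401 to 0.997% ± 0.0432 and mt-Atp8 from 0.103% ± 0.0320 to 0.149% ± 0.0153 (each exact permutation p = 0.1). mt-Nd2, mt-Atp6, mt-Nd4, mt-Nd5 and mt-Nd6 overlapped between genotypes. Grouped by complex, complex I mRNAs made up 30.6% ± 1.55 in WT and 31.1% ± 0.380 in Aif1-/- BMMs, complex IV 52.4% ± 2.49 and 49.7% ± 0.350, and complex V 10.5% ± 0.501 and 10.8% ± 0.00609 (exact permutation p = 0.7, 0.3 and 0.4). Complex III has mt-Cytb alone, whose share is given above (exact permutation p = 0.1).

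**Figure D3:**
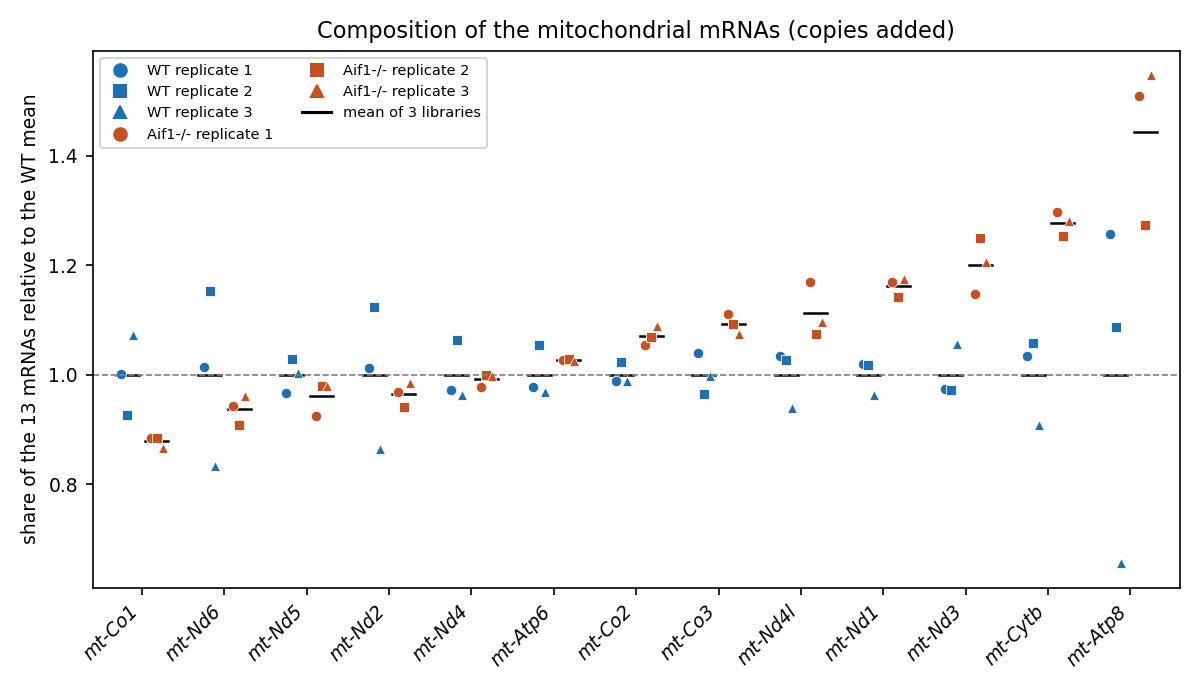
Share of the 13 mitochondrial mRNAs held by each mRNA (copies added), relative to the mean share in WT (dashed line at 1), 1 point per library with the mean of 3 libraries as a bar. mt-Co1 lies below the WT libraries in all 3 Aif1-/- libraries, and 7 mRNAs, ending with mt-Cytb and mt-Atp8, lie above them.

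Levels were compared between mRNAs per kilobase of annotated gene length, as the mean of all 6 libraries. mt-Co1 stood first as deposited, with 62688 ± 6627 normalized counts per kilobase (SD, n = 6). It was followed by mt-Atp6 (30338), mt-Cytb (27293), mt-Co3 (26833), mt-Nd1 (26640) and mt-Co2 (26415), a group whose neighbours changed places between libraries. Below these came mt-Nd5 (20172), mt-Nd4 (18433), mt-Nd6 (16420) and mt-Nd2 (14950), and last mt-Nd4l (6246), mt-Nd3 (5430) and mt-Atp8 (2620), each step from mt-Co2 downwards in the same order in 6 of 6 libraries.

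Adding the nuclear copies' counts rearranged the middle of this order. mt-Atp6 came to 65106, mt-Co2 to 56050 and mt-Co3 to 53714 normalized counts per kilobase, against 85937 for mt-Co1. mt-Atp6 and the 3 cytochrome oxidase mRNAs thus took the first 4 places. mt-Atp8 remained last at 2620, but an unannotated copy of it was not searched for, so its place here is not like for like. mt-Cytb (27293) and mt-Nd1 (26640), for which no copy was found, were then below mt-Co3 in 6 of 6 libraries, and mt-Nd4 (25756) stood beside them. mt-Nd4l and mt-Nd3 came to 12550 and 10970.

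**Figure D4:**
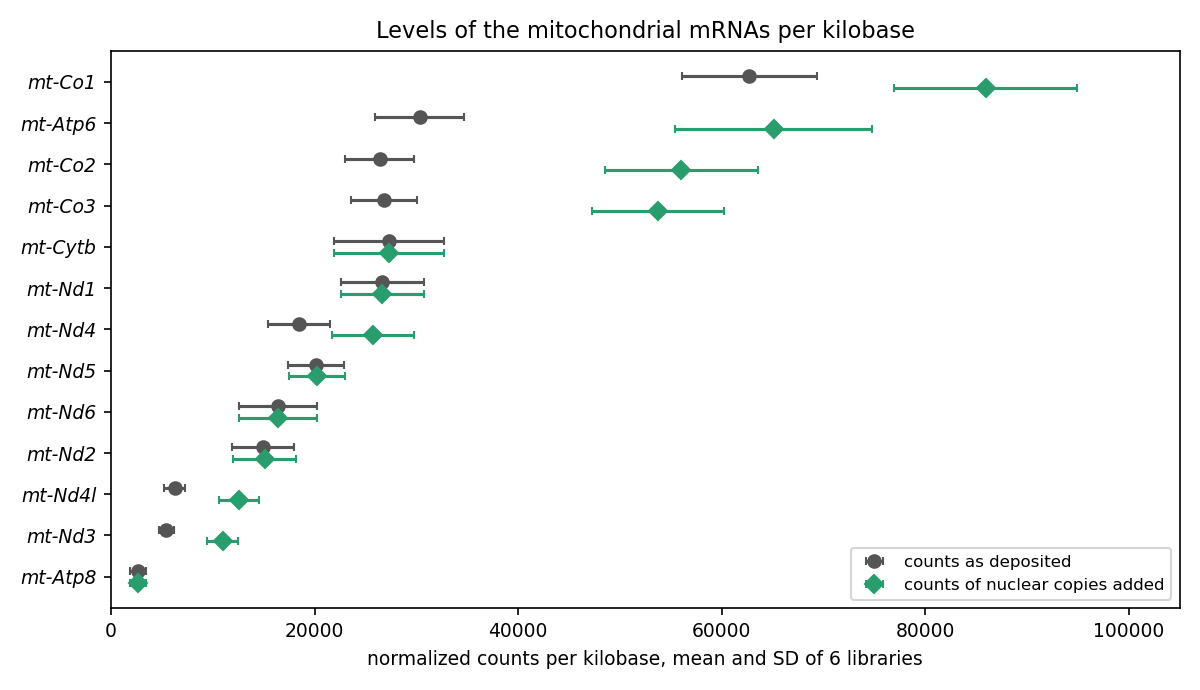
Normalized counts per kilobase of the 13 mitochondrial mRNAs, mean and SD of 6 libraries, as deposited (grey circles) and with counts of nuclear copies added (green diamonds). Copies raise mt-Atp6, mt-Co2 and mt-Co3 to between 53714 and 65106, above mt-Cytb and mt-Nd1, which do not change.

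The low place of mt-Atp8 came with a shared stretch of sequence. mt-Atp8 and mt-Atp6 are read from a single RNA, and their reading frames overlap by 43 bases (chrM:7927-7969), shown in capitals within chrM:7897-7999. The mt-Nd4l and mt-Nd4 frames, also on a single RNA, overlap by 7 bases (chrM:10167-10173, shown within chrM:10137-10203).
mt-Atp8 and mt-Atp6: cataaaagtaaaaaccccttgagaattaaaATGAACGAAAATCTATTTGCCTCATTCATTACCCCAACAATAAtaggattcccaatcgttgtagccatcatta
mt-Nd4l and mt-Nd4: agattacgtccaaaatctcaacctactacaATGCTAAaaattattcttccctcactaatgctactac

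The capitals begin with the start codon ATG of the downstream frame. A read that touches both genes counts as ambiguous and is given to neither. For reads of 75 bases, mt-Atp8, with 204 bases, has 88 positions at which a whole read touches it and no other gene, while mt-Atp6, with 681 bases, has 563. Per 1000 such positions, mt-Atp8 had 6074 and mt-Atp6 36696 normalized counts, against 2620 and 30338 per kilobase of length. The ratio of mt-Co1, the highest, to mt-Atp8, the lowest, was 25.0, 27.2 and 52.2 by length in WT replicates 1 to 3 and 18.5, 21.9 and 17.7 in the Aif1-/- libraries, so that WT replicate 3 stood apart. By positions it was 23.7 in WT replicate 3 and 8.22 to 12.3 in the other 5 libraries. mt-Atp8 stayed below mt-Atp6 on both scales, although both are on the same RNA. Both scales use counts as deposited, which leave out reads placed on nuclear copies. For mt-Atp6, Gm10925 held 52.3% to 53.8% of the pair's counts, and for mt-Atp8 any such share was not tested.

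mt-Nd6 is the sole mRNA read from the other strand, and its end overlaps that of mt-Nd5 by 14 bases (chrM:13552-13565). It had 0.232 ± 0.0352 counts per mt-Nd5 count in WT and 0.227 ± 0.0108 in Aif1-/- BMMs (SD, n = 3, exact permutation p = 0.8). The kit was described as stranded and counting as run with default settings, but whether strand was used was not tested. If it was not, RNA of mt-Nd6 and RNA of the opposite strand cannot be told apart.

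Both rRNAs fell in Aif1-/- BMMs (2 of 2, where 10.5% of all tested genes passed as lower and 19.1% lay lower without overlap). mt-Rnr1, the RNA of the small mitoribosomal subunit (chrM:70-1024), had 337, 928 and 2123 counts in WT replicates 1 to 3 and 250, 111 and 152 in the Aif1-/- libraries. Normalized, these were 339, 787 and 1793 against 221, 148 and 200. The genotypes did not overlap, but the WT libraries covered a 5.29-fold range with replicate 3 highest. The log2 fold change was −2.35 (SE 0.49, edgeR adjusted p = 0.00695), and −1.56 without WT replicate 3 (edgeR adjusted p = 0.000929).

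mt-Rnr2, the RNA of the large subunit (chrM:1094-2675), had 1080, 1960 and 3102 counts in WT and 1155, 636 and 646 in Aif1-/- libraries, which became 1086, 1663 and 2619 against 1020, 847 and 851 after normalization. WT replicate 1 lay just above Aif1-/- replicate 1. The log2 fold change was −0.98 (SE 0.25, edgeR adjusted p = 0.0211), and the call was lost without Aif1-/- replicate 2 or replicate 3 (edgeR adjusted p = 0.0861 and 0.0837).

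These rRNA counts are what remained after depletion. In normalized counts per kilobase, mt-Rnr1 stood at 1019 ± 779 among WT and 198 ± 39.4 among Aif1-/- libraries (SD, n = 3), mt-Rnr2 at 1131 ± 490 and 573 ± 62.5, and the median mRNA at 20548 and 19796. There were 4.72, 6.74 and 18.0 rRNA counts per 1000 mRNA counts in WT replicates 1, 2 and 3 and 3.96, 3.30 and 3.52 in the Aif1-/- libraries. Nuclear genes annotated as rRNA had the same order among WT libraries, with 0.00166%, 0.0114% and 0.0549% of gene counts, and stood at 0.00128%, 0.00158% and 0.00228% in Aif1-/- BMMs. The part of rRNA depletion in the fall of mt-Rnr1 and mt-Rnr2 was not tested.

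The 2 rRNAs did not fall by the same factor. There were 0.312, 0.473 and 0.684 mt-Rnr1 counts for each mt-Rnr2 count in WT and 0.216, 0.175 and 0.235 in Aif1-/- libraries, with no overlap (0.490 ± 0.187 against 0.209 ± 0.0311, SD, n = 3, exact permutation p = 0.1). Replicate 3 was the highest and replicate 1 the lowest of the WT libraries in this ratio, as in the percent of nuclear rRNA.

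**Figure D5:**
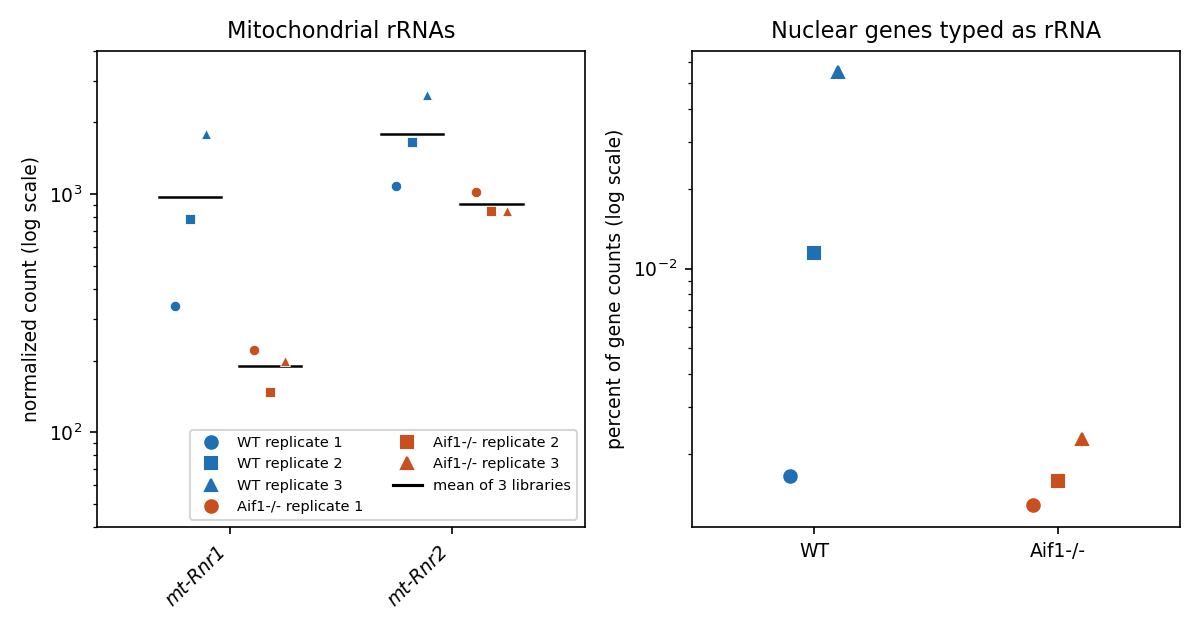
Left, normalized counts of mt-Rnr1 and mt-Rnr2 by library on a log axis, with the mean of 3 libraries as a bar. Right, percent of gene counts on nuclear genes annotated as rRNA, on a log axis: WT replicate 3 is highest in both panels, at 1793 and 2619 normalized counts and at 0.0549%.

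The tRNAs held 1444 counts in all, from 0.000802% to 0.00135% of gene counts per library. Of the 22, 13 had no count in any library (mt-Tf, mt-Ti, mt-Tq, mt-Tw, mt-Ta, mt-Td, mt-Tk, mt-Tg, mt-Tr, mt-Th, mt-Ts2, mt-Tl2 and mt-Tt). Over the summed 141189383 gene counts, a count of 0 allows a share of up to 2.12e-06%, for counting error only. This limit does not hold for a tRNA that no read could touch alone. The tRNAs are 59 to 75 bases long and lie against other genes, and 18 of them have no position at which a read of 75 bases touches them alone when strand is ignored. Those 18 held 26 counts, with at most 5 in a library.

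The other 4 tRNAs, mt-Tl1, mt-Tn, mt-Tc and mt-Tp, have 1, 31, 26 and 67 such positions and held 98.2% of the tRNA counts. The 10 tRNAs that would gain positions with strand, 63 to 145 each, are among the 18 and held 25 counts. All 13 tRNAs at 0 are among the 18 too, and 6 of these 13 (mt-Ti, mt-Tq, mt-Tw, mt-Ta, mt-Td and mt-Tt) are among the 10. Whether strand was used in counting was not tested. If it was not, the zeros give no measure of abundance. mt-Tf, mt-Tk, mt-Tg, mt-Tr, mt-Th, mt-Ts2 and mt-Tl2 have no such position with strand either. For full-length reads their zeros give no measure in any case. mt-Tl1 had 2 counts, both in Aif1-/- replicate 1. The 3 that passed the filter on low counts all lie on the strand opposite to most mRNAs, mt-Tn and mt-Tc on either side of the light-strand replication origin and mt-Tp beside the control region. They are printed as DNA, 5′ to 3′ on their own strand, with the anticodon in capitals.
mt-Tn, chrM:5089-5159: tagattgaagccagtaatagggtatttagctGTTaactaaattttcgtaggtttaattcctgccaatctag
mt-Tc, chrM:5192-5257: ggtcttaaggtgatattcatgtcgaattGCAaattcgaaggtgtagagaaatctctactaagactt
mt-Tp, chrM:15356-15422: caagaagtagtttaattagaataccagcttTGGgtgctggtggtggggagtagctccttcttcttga

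None of the 3 passed the edgeR test, beside 18.6% of all tested genes (0 at an unadjusted p under 0.05, and 0 with DESeq2). mt-Tc, the cysteine tRNA, had 244, 308 and 207 counts in WT replicates 1 to 3 and 208, 119 and 143 in the Aif1-/- libraries. Normalized, it had 227 ± 46.0 in WT and 177 ± 16.1 in Aif1-/- BMMs (SD, n = 3), with WT replicate 3 among the Aif1-/- values. Its log2 fold change was −0.36 (SE 0.17, edgeR adjusted p = 0.209). Without WT replicate 3 it passed as lower at −0.51 (edgeR adjusted p = 0.0106), where 14.0% of all tested genes passed as lower.

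mt-Tn, the asparagine tRNA, had 10, 15 and 11 counts in WT and 12, 7 and 6 in Aif1-/- libraries (log2 fold change −0.19, edgeR adjusted p = 0.833). mt-Tp, the proline tRNA, had 16, 35 and 27 and then 25, 13 and 10 (log2 fold change −0.37, edgeR adjusted p = 0.598). Such low counts limit what could be detected, and the smallest detectable change was not tested. mt-Tc exceeded mt-Tn by 17.0 to 24.4 counts per count in all 6 libraries, although fewer positions were open to it (26 against 31). For the reason given above, this is not a ratio of cut-out tRNAs.

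Nuclear genes that act on mitochondrial DNA and RNA were taken from 5 lists. Of 168 tested, 16 passed (9.52%, beside 18.6% of all tested genes), 5 higher and 11 lower in Aif1-/- BMMs. Their median log2 fold change was −0.02. The number was 8 without WT replicate 1, 21 without WT replicate 2 and 20 without WT replicate 3, in fits that called 14.5%, 22.5% and 27.6% of all tested genes. Without Aif1-/- replicate 1, 2 or 3 it was 4, 5 or 5, beside 11.5%, 11.7% and 11.9% of all tested genes. Of the genes named below as rising or falling, Polg, Trub2, Mrpl52 and Mrpl45 alone kept their call with each library left out.

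Among 20 genes of mitochondrial DNA transcription and maintenance, 1 rose and 2 fell (15%, beside 18.6% of all tested genes). Polg, the catalytic subunit of the mitochondrial DNA polymerase, had normalized counts of 1510, 1639 and 1645 among WT and of 2081, 2016 and 2303 among Aif1-/- libraries (log2 fold change 0.42, edgeR adjusted p = 0.00319). Top1mt, the mitochondrial topoisomerase I, fell (−0.57, edgeR adjusted p = 0.0250), as did Mterf2 of the mitochondrial termination factor family (−1.18, edgeR adjusted p = 0.0361). Mterf2 had 57, 91 and 48 counts in WT and 20, 22 and 24 in Aif1-/- libraries. Both calls were lost without WT replicate 1 or any 1 of the Aif1-/- libraries, and that of Mterf2 also without WT replicate 2. Twnk, the replicative helicase, had a log2 fold change of −0.25 (edgeR adjusted p = 0.207).

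Of 36 genes of RNA processing, modification and decay, 4 fell (11.1%) and 0 rose. Of all tested genes, 10.5% passed as lower and 8.04% as higher, and the median log2 fold change of the 36 was 0.0036. Trub2, a pseudouridine synthase, had normalized counts of 994, 1000 and 1059 among WT and of 686, 677 and 754 among Aif1-/- libraries (log2 fold change −0.53, edgeR adjusted p = 0.00105). The others were Trmt61b, a methyltransferase for mitochondrial tRNA and rRNA (−0.85, edgeR adjusted p = 0.0314), Angel2 (−0.24, edgeR adjusted p = 0.0442) and Pnpt1, the mitochondrial polynucleotide phosphorylase (−0.23, edgeR adjusted p = 0.0469). DESeq2 did not call Angel2 or Pnpt1 (adjusted p = 0.0604 and 0.0590).

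Of 23 genes of tRNA charging, 8.70% passed, beside 18.6% of all tested genes. Vars2, the valyl-tRNA synthetase, fell (−0.60, edgeR adjusted p = 0.01998) and Qrsl1, which completes the charging of glutamine tRNA, rose (0.42, edgeR adjusted p = 0.0275). Iars2, the isoleucyl-tRNA synthetase, had a log2 fold change of −0.22 (edgeR adjusted p = 0.0714). Lars2, the leucyl-tRNA synthetase, had normalized counts of 712, 1045 and 4766 among WT and of 667, 723 and 662 among Aif1-/- libraries (log2 fold change −1.67, edgeR adjusted p = 0.0749). Without WT replicate 3 the log2 fold change was −0.36, and without WT replicate 1 or 2 it passed, at −2.089 or −2.005. Its WT libraries stood in the order seen for mt-Rnr1, mt-Rnr2 and nuclear rRNA, with replicate 3 highest.

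Of 12 tested translation factors, 8.33% passed, beside 18.6% of all tested genes. Oxa1l, the insertase that places newly made mitochondrial proteins in the inner membrane, rose (0.35, edgeR adjusted p = 0.0404). Mtrf1, Mtrf1l and Mtif3, release and initiation factors, had log2 fold changes of −0.26, −0.19 and −0.22 (edgeR adjusted p = 0.258 to 0.359). Of 77 tested proteins of the mitochondrial ribosome, the particle that mt-Rnr1 and mt-Rnr2 belong to, 2 rose and 4 fell (7.79%, beside 18.6% of all tested genes). Mrpl52 had normalized counts of 426, 381 and 470 among WT and of 868, 879 and 922 among Aif1-/- libraries (log2 fold change 1.06, edgeR adjusted p = 3.32e-05). Mrpl45, Mrpl41 and Mrpl55 fell by 0.41, 0.43 and 0.44 on the log2 scale (edgeR adjusted p = 0.00427, 0.0208 and 0.0308). The median log2 fold change of the 77 was −0.0408.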

How the data were processed

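The authors trimmed single-end reads (Trim Galore 0.5), aligned them to GRCm38 (TopHat2 2.0.13) and counted them per gene of Ensembl release 84 (HTSeq 0.6.1p1, default settings). The deposited values are raw counts. Libraries were grouped by the genotype in their labels. Genotype was tested with edgeR 4.0.16 (R 4.3.3; TMM, default filter, quasi-likelihood F test, Benjamini-Hochberg over 17406 genes, threshold 0.05), which was also tested on simulated data. Reads outside genes and ambiguous reads stayed out of library sizes. SEs were derived from the log2 fold change and the F statistic. Single values were compared by exact permutation tests. Symbols, lengths and sequences came from GENCODE M21 transcripts (GRCm38), which matched 47310 of 47729 genes, and nuclear copies from blastn 2.17.0. All mRNAs and rRNAs, tRNAs that passed the filter, all copies found, and up to 4 members of each machinery list with the smallest adjusted p were named. The naming rule covered 10 copies, so Gm4076 was named after its values were seen. Alternatives were DESeq2 1.42.0, other scalings and filters, a replicate block, leaving out each library, and copies added. Members and lists were chosen with earlier results of these data known. Some marker lists are not reported here.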

Additional observations from a re-analysis of the deposited data

How the results depend on the processing

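The number of mRNAs called was 0 except with no filter (3) and when a library was left out (0 to 3). For rRNAs it was 2, and 1 to 2 with a library left out, and for tRNAs 0, and 0 to 1. Called machinery genes numbered 16, 7 with the replicate block, and 4 to 21 with a library left out. Called copies numbered 0, 1 with no filter and 0 to 3 with a library left out. Of all 17406 tested genes, the replicate block called 1267 as higher and 1605 as lower. With a library left out, 11.5% to 27.6% of all tested genes passed, beside 18.6% in the main fit. With no filter, 5.97% passed as higher. The causes were not tested. The highest-to-lowest level ratio, averaged over the ratios of the 6 libraries, was 27.08, with 18.1 by read starts inside the gene and 37.05 with copies added. By positions touching a single gene, chosen after seeing the data, it was 12.35, and 16.8 with copies added as well. The ratios with copies added are not like for like, because mt-Atp8, the lowest, had no counts to add. The log2 fold change of mt-Nd4 turned from −0.01 to 0.00316 with no filter and 0.0229 with the replicate block. With a library left out, log2 fold changes crossed 0 for mt-Nd2 (−0.27 to 0.19), mt-Co2 (−0.0343 to 0.26), mt-Atp6 (−0.11 to 0.22), mt-Nd4l (−0.0291 to 0.30), mt-Nd4 (−0.17 to 0.21), mt-Nd5 (−0.18 to 0.12), mt-Nd6 (−0.34 to 0.16), Gm10925 (−0.11 to 0.24), Gm28661 (−0.0140 to 0.27), Gm13340 (−0.0968 to 0.00785), Gm28439 (−0.15 to 0.15) and Gm13341 (−0.13 to 0.38). Same-numbered libraries had correlations of 0.0601, −0.0753 and −0.0858 over deviations from the genotype means. Not every library correlated best with its own number. These values cannot exclude a shared day or preparation, which the labels do not state. The difference in the mitochondrial share lay between −0.157 and 0.149 percentage points with a library left out. The exact permutation tests of 3 against 3 libraries cannot reach the threshold, and the counts of mt-Tn and mt-Tp limit what could be detected for them.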
